A study of Mus musculus with 2 samples.

Results

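Chemokines are small secreted proteins that direct the movement of leukocytes, and 10 of their ligand genes were followed here among the 33696 genes counted in live lung cells of adult mice. The 10 genes were taken by name: Ccl2 (ENSMUSG00000035385), Ccl3 (ENSMUSG00000000982), Ccl4 (ENSMUSG00000018930), Ccl5 (ENSMUSG00000035042), Ccl6 (ENSMUSG00000018927), Ccl9 (ENSMUSG00000019122), Ccl17 (ENSMUSG00000031780), Ccl22 (ENSMUSG00000031779), Cxcl12 (ENSMUSG00000061353) and Cxcl16 (ENSMUSG00000018920). All 10 were found in both libraries. The samples were 1 single-cell library labelled GFI1 KO, from lung with a germline loss of the transcription factor GFI1, and 1 library labelled GFI1 WT, from wild-type lung. No treatment is given in the labels for either. Perfused lungs were digested with enzymes, live cells were sorted, and 10x Genomics 3′ libraries counted unique molecular identifiers (UMIs) per gene and cell. The study's methods describe duplicates for each genotype, of which 1 library each was analysed here, and whether a library pooled several mice is not given in the sources used here. Genotype, mouse and library therefore cannot be told apart, and the values below come without a test or an estimate of the variation among mice.

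A chemokine is read by receptors on the cell that moves, and several ligands share a receptor. Ccl2 acts through Ccr2, which monocytes use to leave the bone marrow. Ccl3, Ccl4 and Ccl5 are inflammatory ligands that draw monocytes and lymphocytes, and Ccl3, Ccl5, Ccl6 and Ccl9 are ligands of Ccr1. Ccl17 and Ccl22 are made by dendritic cells and some macrophages and share the receptor Ccr4 of T cells. Cxcl12 is a stromal ligand that retains leukocytes through Cxcr4 and is scavenged by Ackr3. Cxcl16 is made as a transmembrane protein and binds Cxcr6 on T cells.

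Upstream sequences are shown for the 2 pairs of neighbouring genes whose levels the results compare. RefSeq's promoter table, on build GRCm38.p6 and not on the build of the count files, held 6 of the 10 genes (Ccl3, Ccl6, Ccl9, Ccl17, Ccl22 and Cxcl12). Ccl2, Ccl4, Ccl5 and Cxcl16 had no entry. The starts of Ccl22 and Ccl17 lie 64.8 kb apart on chromosome 8, and those of Ccl9 and Ccl6 lie 14.5 kb apart on chromosome 11. The 120 bases before the start of Ccl17 (chr8:94810333-94810452, plus strand) and of Ccl22 (chr8:94745564-94745683, plus strand) follow, 5′ to 3′. Capitals mark matches to the motifs searched.
Ccl17: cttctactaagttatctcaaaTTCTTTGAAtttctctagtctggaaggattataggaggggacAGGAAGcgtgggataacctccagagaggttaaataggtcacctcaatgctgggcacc
Ccl22: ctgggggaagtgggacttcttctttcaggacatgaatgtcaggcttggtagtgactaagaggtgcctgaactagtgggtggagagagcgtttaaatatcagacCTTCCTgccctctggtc

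In the 120 bases before the start of Ccl6 (chr11:83593088-83593207, minus strand) and of Ccl9 (chr11:83578637-83578756, minus strand), capitals mark the longest run that the 250 bases before both starts share.
Ccl6: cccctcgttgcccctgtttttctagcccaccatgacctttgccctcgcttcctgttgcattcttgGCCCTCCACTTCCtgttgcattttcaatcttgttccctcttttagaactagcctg
Ccl9: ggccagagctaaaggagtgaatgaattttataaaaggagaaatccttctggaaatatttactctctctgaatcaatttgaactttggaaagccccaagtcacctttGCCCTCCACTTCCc

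This run was 13 bases long, against 6 to 10 bases for the other 14 pairs of the 6 genes. The longest run shared by Ccl17 and Ccl22 was 7 bases. Motifs were searched on both strands of the 250 bases before each start. The ETS core AGGAAG was found before Ccl6, Ccl17 and Ccl22, and before 29.5% of 32851 promoters of the same length. The STAT motif TTCNNNGAA was found before Ccl17 (7.02% of promoters). Ccl9 held TGANTCA, searched as AP-1, as the letters TGAATCA 53 bases before the start (6.75%). It held TATAAA, searched as the TATA box, on either strand 92, 94 and 224 bases before the start (12.4%). A match to the NF-kB consensus (3.90%) was found before Ccl9 as well. The core AAATCA of GFI1 sites, held by 12.4% of all promoters, was in none of the 6 windows, nor were the PU.1 type motif GAGGAAGT (2.44%), which contains the ETS core, and the IRF motif (2.98%). A match is a description of letters.

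Under the KO label 10700 cells with 116825535 gene UMIs were deposited, and under the WT label 19515 cells with 162599284. After filters, 10495 and 19342 cells remained, with medians of 11076 and 6217 UMIs per cell. Gfi1 (ENSMUSG00000029275) was at 3.60 CPM (3.23 to 4.004) under the KO label and at 3.47 CPM (3.16 to 3.80) under the WT label, where CPM are UMIs of the gene per 1000000 UMIs and the interval is an exact 95% Poisson interval. Within types it was higher under the KO label and the intervals lay apart, at 23.0 CPM (18.3 to 28.6) against 10.0 CPM (8.21 to 12.1) in T cells, 40.1 CPM (28.8 to 54.4) against 24.7 CPM (21.4 to 28.5) in NK cells, 14.1 CPM (10.0 to 19.3) against 6.97 CPM (5.38 to 8.88) in B cells and 1.38 CPM (0.967 to 1.91) against 0.179 CPM (0.0773 to 0.353) in alveolar macrophages. The part of the gene that the allele lacks is not given in the sources used here, and 3′ tags outside it check nothing, so each library is called by its label. The libraries shared 74 cell barcodes, of which 17 were given the same cell type in both. All intervals below cover counting error only. Genes of chemokine ligands and receptors were kept out of the genes that built the clusters.

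The cells fell into 38 clusters, of which 12 stayed unnamed. Cell numbers differed between the libraries in myeloid and structural types alike. General capillary cells made up 0.943% of cells under the KO label and 9.93% under the WT label. Alveolar macrophages (11 of 11 markers raised) numbered 2322 cells under the KO label and 3710 under the WT label. Next, a cluster led by Lcn2, with granule genes such as Prtn3 and Elane and 8 of 8 classical monocyte markers raised, held 2355 and 13 cells. A cluster led by Sirpd, with 7 of 8 classical monocyte markers raised, held 2434 and 402 cells. Both had markers of other types among their leading genes and are called by the leading gene, as is a cluster led by Fbp1 (2 and 270 cells) with 7 of 11 alveolar macrophage markers raised. Neutrophils numbered 8 and 1428. Interstitial macrophages numbered 68 and 427, and their cluster also had 7 of 8 markers of cDC2, a conventional dendritic cell type, raised. Levels were compared in the 10 types with at least 50 cells in each library.

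**Figure D1:**
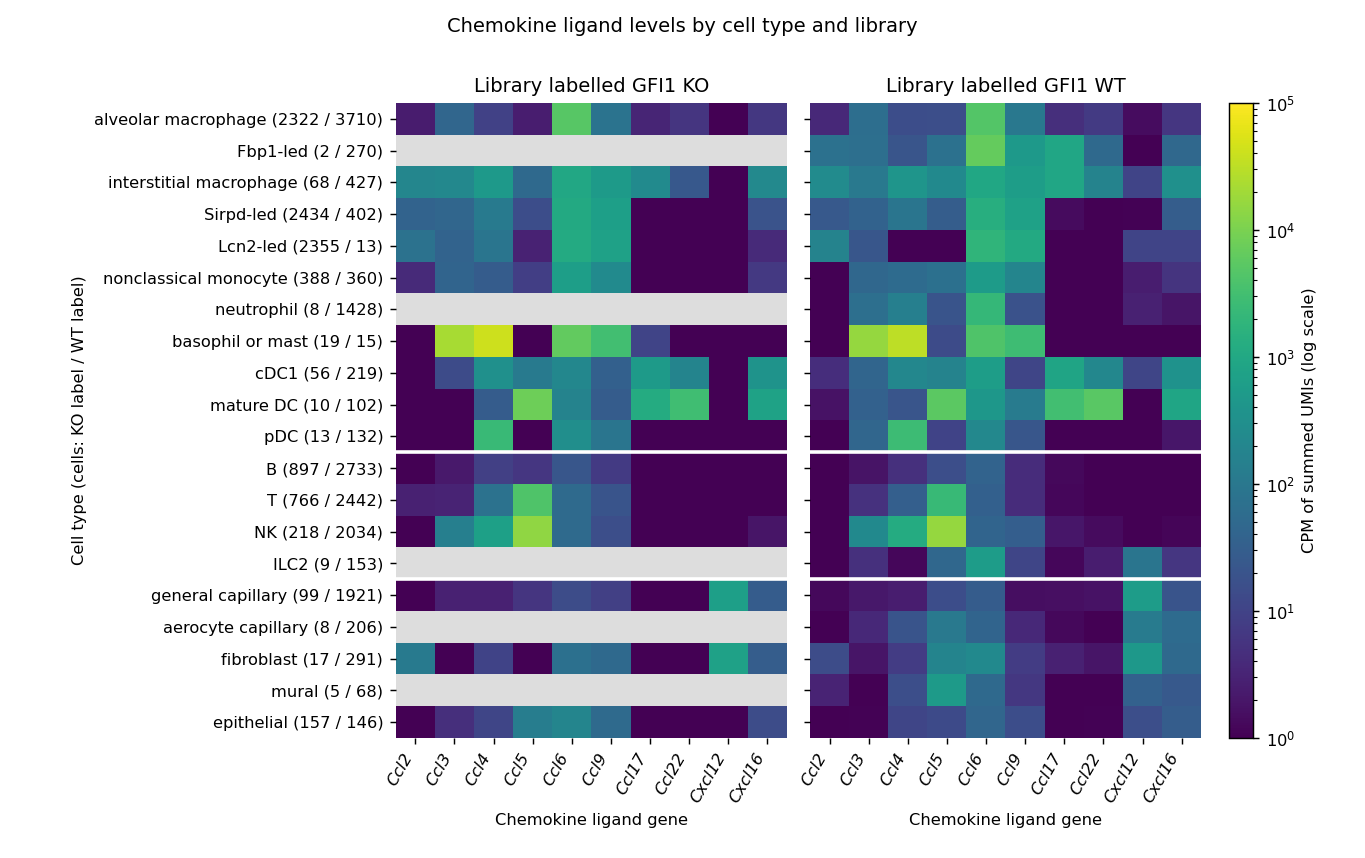
Level of each chemokine ligand (columns) in each cell type (rows, with cells under the KO and WT labels) in the library labelled GFI1 KO (left) and WT (right), as CPM of summed UMIs on a log colour scale. Grey fields are types with too few cells to show, such as Fbp1-led cells and neutrophils under the KO label. Among rows shown in both panels, most ligands have their brightest fields in the same few rows. An example is Ccl3 and Ccl4 in the 19 and 15 basophils or mast cells.

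Ccl6 and Ccl9, CC chemokines of rodents that act on Ccr1, were myeloid genes in both libraries. Ccl6 was at 4936 CPM (4909.5 to 4964) in alveolar macrophages under the KO label and at 4690.4 CPM (4670.3 to 4710.5) under the WT label. Nearly every alveolar macrophage held it, with 97.6% and 97.2% of cells positive after each cell was thinned to 1500 UMIs, and the median cell carried 48 and 47 UMIs before thinning. The same cells gave 62.9% and 69.1% of all Ccl6 UMIs of their library. In B cells, taken as the background of free RNA, 3.36% and 5.47% of thinned cells held a Ccl6 UMI, at median depths of 3915 and 4040 UMIs against 13140 and 13597.5 in alveolar macrophages. The Fbp1-led cells were higher than alveolar macrophages under the WT label, at 6664 CPM (6582 to 6747). Neutrophils under the WT label were at 2172 CPM, the Lcn2-led cells under the KO label at 1152 CPM and the Sirpd-led cells at 1102 and 1350.3 CPM under the KO and WT labels. Interstitial macrophages (976 and 952 CPM) and nonclassical monocytes (639.9 and 561 CPM) followed. The intervals of the libraries overlapped in interstitial macrophages, at 903 to 1055 and 923 to 982 CPM.

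Ccl9 had another order of sources. It was at 669.5 CPM (659 to 680.4) in Sirpd-led cells under the KO label and at 728 CPM (696 to 759.6) under the WT label. The Lcn2-led cells under the KO label were at 726 CPM (715 to 736). Interstitial macrophages were at 526 and 616 CPM and nonclassical monocytes at 245 and 185 CPM, while alveolar macrophages were at 81.7 and 99.3 CPM. The order of Ccl6, with alveolar macrophages far above the monocyte types, was thus turned for Ccl9. After thinning, 58.1% and 56.5% of Sirpd-led cells held a Ccl9 UMI, against 1.16% and 0.409% of B cells. Under the KO label, Lcn2-led and Sirpd-led cells gave 46.9% and 38.4% of the Ccl9 UMIs. Under the WT label the largest shares were those of alveolar macrophages with 31.3% and interstitial macrophages with 17.99%. Of thinned interstitial macrophages with a Ccl6 UMI under the WT label, 64.1% held Ccl9 too, against 33.3% of those without, and among Lcn2-led cells under the KO label the shares were 62.2% and 62.0%.

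Ccl2, the main ligand of Ccr2, was at 196 CPM (164 to 233) in interstitial macrophages under the KO label and at 260.4 CPM (245 to 276) under the WT label. The Lcn2-led cells were at 77.6 CPM (74.2 to 81.2) under the KO label, the Sirpd-led cells at 39.0 and 25.0 CPM, and the Fbp1-led cells at 73.4 CPM under the WT label. The 13 Lcn2-led cells under the WT label held 16 UMIs. B cells held it in 0 of 862 thinned cells under the KO label, which allows up to 0.348% of cells, and in 2 of 2688 under the WT label. Ccl2 was uneven among cells. The tenth of interstitial macrophages with most UMIs held 81.5% and 82.9% of the Ccl2 UMIs of the type. The main source by share was the Lcn2-led cluster under the KO label (60.2%) and the interstitial macrophages under the WT label (57.9%).

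**Figure D2:**
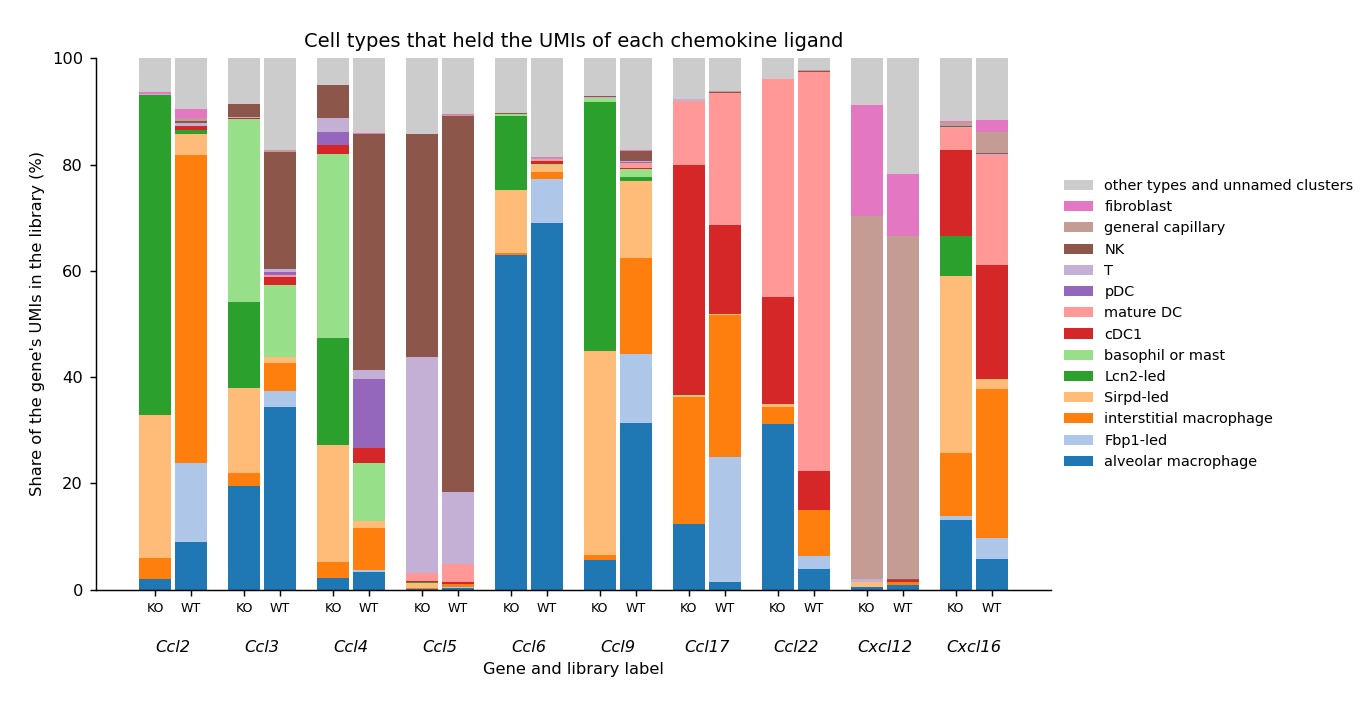
Share of each gene's UMIs (stacked bars, %) that came from each cell type, in the library labelled GFI1 KO and the library labelled WT. Lcn2-led and Sirpd-led cells gave most of Ccl2 and Ccl9 under the KO label, while alveolar macrophages gave 62.9% and 69.1% of Ccl6 under the KO and WT labels.

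Ccl3 and Ccl4, inflammatory ligands of closely related sequence, had their highest levels in a small cluster. The 19 basophils or mast cells under the KO label (8 of 8 markers raised, led by Mcpt8) were at 22572 CPM (21614 to 23561) of Ccl3 and the 15 under the WT label at 15962 CPM (15048 to 16918). For Ccl4 the levels were 41003 CPM (39708 to 42329) and 31784 CPM (30488 to 33121). The 19 cells gave 34.6% of the Ccl3 UMIs and 34.6% of the Ccl4 UMIs of the KO-labelled library, and the 15 cells gave 13.5% and 10.9% in the WT-labelled library. After thinning, 19 of 19 of these cells under the KO label and 14 of 15 under the WT label held Ccl3, against 0.348% and 0.186% of B cells. The cluster was also at 6399.6 and 4212 CPM of Ccl6 and 3059 and 2794 CPM of Ccl9. With so few cells these values describe the cells captured.

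NK cells were at 681 CPM (631 to 734) of Ccl4 under the KO label and at 1176 CPM (1152 to 1199.8) under the WT label, and at 144 and 237 CPM of Ccl3. In thinned NK cells of the WT-labelled library, 61.7% of cells with a Ccl3 UMI held Ccl4 too, against 45.6% of cells without, and under the KO label the shares were 57.4% and 27.0%. Ccl4 was thus seen in a larger share of NK cells with a Ccl3 UMI than of those without, in both libraries. Plasmacytoid dendritic cells, known for type I interferon, held Ccl4 at 2447 CPM (2169.6 to 2751) from 13 cells and 2723 CPM (2621 to 2828) from 132 cells, with 69.2% and 74.8% of thinned cells positive, and held 0 and 43 UMIs of Ccl3. Interstitial macrophages held Ccl4 at 485 and 403 CPM and cDC1, the Xcr1+ dendritic cells, at 316 and 209 CPM. Alveolar macrophages held Ccl3 at 45.2 and 64.9 CPM, and through their number gave 19.5% and 34.3% of its UMIs.

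Ccl5, a ligand made by cytotoxic lymphocytes, was at 15040.4 CPM (14804 to 15280.1) in NK cells under the KO label and at 16347 CPM (16258 to 16436) under the WT label. Of thinned NK cells, 98.1% and 99.4% held it, and the median NK cell carried 61 and 53 UMIs before thinning. Of the 4 T cell clusters, the cluster led by Scart1, with 8 of 8 CD8 and 7 of 8 γδ T cell markers raised and Trdc, Trgc2 and Trgc4 among its leading genes, was closest to NK cells, at 12281 CPM (12079 to 12485) and 12899 CPM (12729.5 to 13069.5). The T cell clusters led by Dapl1 (569 and 347 CPM) and Il17a (277 and 449.9 CPM) were lower, and the cluster led by Cd4 was at 3.23 CPM from 1 UMI and 21.6 CPM. Mature dendritic cells, the Ccr7+ state that carries antigen to lymph nodes, were at 7753 CPM (7119 to 8429) from 10 cells and 5425 CPM (5291 to 5562) from 102 cells. In alveolar macrophages, the background for Ccl5, 0.389% and 2.17% of thinned cells held a UMI.

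Ccl17 and Ccl22, both ligands of Ccr4, were genes of dendritic cells and of clusters with macrophage markers. Their Pearson correlation over the 29 columns of library and cell type with at least 50 cells, on log2(CPM + 1), was 0.96. Each was the nearest of 12120 genes to the other. Mature dendritic cells were at 1170.0 CPM (932 to 1450.4) of Ccl17 under the KO label, from 10 cells, and at 3134 CPM (3032 to 3238) under the WT label, from 102 cells. For Ccl22 the levels were 2889.8 CPM (2508 to 3314) and 5339 CPM (5206 to 5474). Of thinned mature dendritic cells under the WT label, 62.0% held Ccl17 and 78.0% held Ccl22, and 87.1% of the cells with Ccl17 also held Ccl22, against 63.2% of the rest. In cDC1, which present antigen to CD8 T cells, Ccl17 was at 529 CPM (470.4 to 592) and 848 CPM (814 to 882). Ccl22 in cDC1 was at 177 CPM (144 to 215) and 208 CPM (191 to 225). The background for Ccl17 was 0 of 88 thinned general capillary cells under the KO label, which allows up to 3.41% of cells, and 0.380% under the WT label. For Ccl22 it was 1.04% and 1.19% of alveolar macrophages.

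Clusters with macrophage markers held both genes as well, in other proportions. The Fbp1-led cells of the WT-labelled library were at 899.8 CPM (869.8 to 931) of Ccl17, with 32.0% of thinned cells positive, and at 50.3 CPM of Ccl22, with 2.63% positive. Of these 190 Ccl22 UMIs, 161 came from 1 cell. Interstitial macrophages under the WT label were at 929 CPM (899.8 to 959) of Ccl17 and at 171 CPM (159 to 184) of Ccl22. In thinned cells of this cluster, Ccl17 was held by 17.5% with Ccl6 against 32.4% without. For Ccl9 the shares were 14.4% and 35.0%, and for Ccl4 they went the other way, at 31.4% and 23.7%. Of the cells with Ccl17, 25.0% held Ccl22, against 4.17% of the rest. Whether macrophages or dendritic cells of the cluster held these genes was not tested. By share, mature dendritic cells gave 75.1% of the Ccl22 UMIs under the WT label but 24.9% of the Ccl17 UMIs, where interstitial macrophages gave 26.7%, Fbp1-led cells 23.6% and cDC1 16.7%.

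Cxcl12 was the member of structural cells. General capillary endothelial cells were at 675 CPM (591 to 767) under the KO label, from 99 cells, and at 572 CPM (556 to 587) under the WT label, from 1921 cells. Fibroblasts were at 722 CPM (564 to 910.1) from 17 cells and 459 CPM (430.1 to 489) from 291 cells. After thinning, 48.9% and 44.1% of general capillary cells held it, against 0 of 862 and 2 of 2688 B cells. Aerocyte capillary cells, the large capillary cells of gas exchange, were lower than general capillary cells, at 119.8 CPM (103 to 138) under the WT label. General capillary cells gave 68.3% and 64.5% of all Cxcl12 UMIs.

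Cxcl16 was highest in mature dendritic cells, at 747 CPM (559.7 to 977) from 10 cells and 858 CPM (805 to 913) from 102 cells. cDC1 were at 364 CPM (316 to 417) and 359.9 CPM (338 to 383), interstitial macrophages at 227 CPM (192 to 266) and 323 CPM (306 to 341), and Sirpd-led cells at 19.3 and 29.6 CPM. In cDC1, 37.5% and 37.3% of thinned cells held it, against 0 of 862 and 2 of 2688 B cells. In cDC1 it was spread over more cells than Ccl22, with a median of 3 UMIs per cDC1 under both labels. Of thinned cDC1 with a Ccl17 UMI under the WT label, 49.3% held Cxcl16, against 31.8% of the rest.

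The comparison of the labels within a cell type asks whether a ligand's level differed between the libraries once the number of cells of the type is set aside. Of the 100 combinations of gene and type, 63 had at least 30 UMIs over both libraries, of which 43 lay within 2-fold, 7 were at least 2-fold higher under the KO label and 13 at least 2-fold lower. Their median log2 ratio was -0.26. Over all genes, the share past 2-fold either way ran from 3.04% in B cells to 30.8% in epithelial cells. Only 7 of the 20 past 2-fold were among the 28 combinations at 100 CPM or more in either library, where 21 lay within 2-fold. The share of all genes past 2-fold at that level was not computed.

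The counts differed by type. In alveolar macrophages 0 of 10 were higher and 2 lower, against 0.42% and 3.98% of all genes (4.4% either way). In Sirpd-led cells 0 of 7 were higher and 0 lower, against 4.8% and 3.65% of all genes (8.45% either way). In nonclassical monocytes 0 of 5 were higher and 1 lower, against 2% and 1.6% of all genes (3.6% either way). Lcn2-led and Fbp1-led cells were not compared, since 1 library held too few of them. In interstitial macrophages 1 of 10 were higher and 4 lower, against 2.42% and 7.95% of all genes (10.4% either way). In cDC1 1 of 9 were higher and 3 lower, against 1.33% and 8.64% of all genes (9.96% either way). These are the types with 68 and 56 cells under the KO label. In B cells 0 of 4 were higher and 1 lower, against 1.45% and 1.59% of all genes (3.04% either way). In T cells 2 of 5 were higher and 0 lower, against 6.31% and 3.74% of all genes (10% either way). In NK cells 0 of 5 were higher and 0 lower, against 3.81% and 7.36% of all genes (11.2% either way). Among structural cells, the counts were high for all genes in the epithelium. In general capillary cells 0 of 4 were higher and 1 lower, against 3.56% and 10.7% of all genes (14.2% either way). In epithelial cells 3 of 4 were higher and 1 lower, against 21.1% and 9.67% of all genes (30.8% either way). The median log2 ratio of all genes lay between -0.08 and 0.02 in every type but epithelial cells, where it was 0.16.

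**Figure D3:**
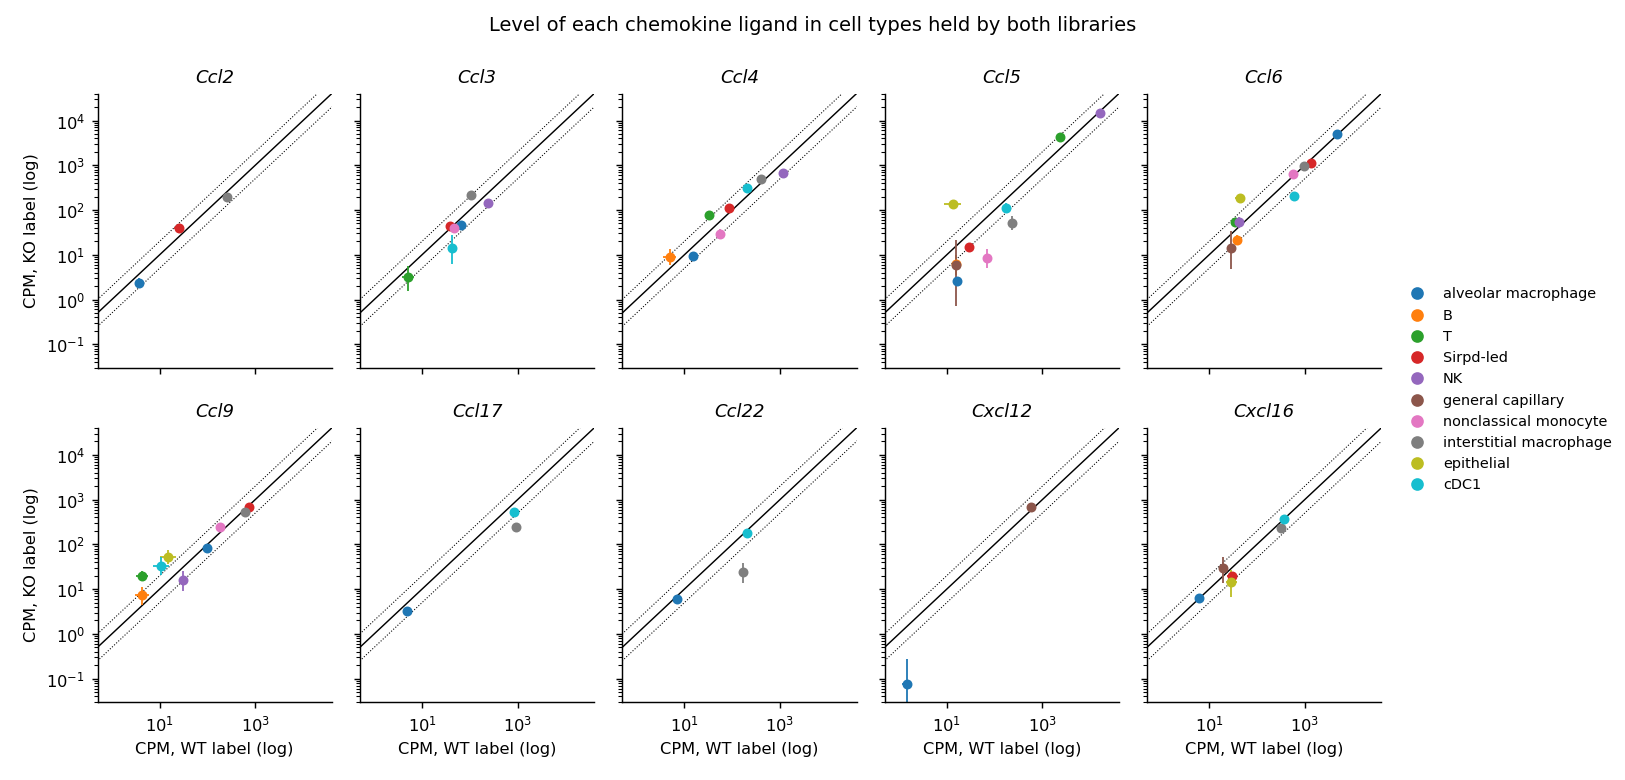
Level of each chemokine ligand in CPM under the WT label (x axis, log) and the KO label (y axis, log). Points are the compared cell types with at least 30 UMIs of the gene over both libraries and a UMI in each. Cxcl12 in interstitial macrophages and cDC1, with 0 UMIs under the KO label, is not shown. Bars are 95% Poisson intervals and the lines mark equality and 2-fold. Ccl5 in NK cells, Ccl6 in alveolar macrophages and Cxcl12 in general capillary cells lie near equality, while Ccl17 and Ccl22 in interstitial macrophages lie below 2-fold.

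Several compared types that hold a member at a high level had values within 2-fold between the labels. Mature dendritic cells, Lcn2-led cells and basophils or mast cells, which hold high levels of some members, had too few cells in a library to be compared. The ratio of the KO to the WT label was 1.05 (1.05 to 1.06) for Ccl6 in alveolar macrophages, 0.920 (0.879 to 0.964) for Ccl9 in Sirpd-led cells, 0.920 (0.905 to 0.936) for Ccl5 in NK cells and 1.18 (1.03 to 1.35) for Cxcl12 in general capillary cells. It was 1.01 (0.867 to 1.18) for Cxcl16 in cDC1, 0.851 (0.682 to 1.05) for Ccl22 in cDC1 and 0.755 (0.624 to 0.906) for Ccl2 in interstitial macrophages. In NK cells, Ccl3 and Ccl4 had ratios of 0.606 (0.509 to 0.717) and 0.579 (0.536 to 0.626). All of these lay within 2-fold by their point values in the main clustering. Ccl2 in interstitial macrophages went past 2-fold when called doublets were left out before clustering. Ccl4 in NK cells did so with separate clustering of each library. In T cells as a whole, Ccl5 was at 4254 and 2295 CPM, a ratio of 1.85 (1.82 to 1.89). It was past 2-fold without called doublets and with the mean of each cell's CPM. The Scart1-led cluster, which carried this gene, was 229 of 766 T cells under the KO label and 344 of 2442 under the WT label, and within it the level was no higher under the KO label.

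Ccl17 and Ccl22 were lower under the KO label in interstitial macrophages. Ccl17 was at 249 CPM (213 to 290.5) against 929 CPM, a ratio of 0.268 (0.228 to 0.314). Of thinned cells, 12.1% (5.38 to 22.5%) against 25.0% (20.9 to 29.5%) held it. Of its UMIs, 61 of 165 under the KO label and 535 of 3846 under the WT label came from 1 cell. Ccl22 was at 24.2 CPM (13.8 to 39.3) against 171 CPM, a ratio of 0.141 (0.0804 to 0.231), and 3.03% against 9.38% of thinned cells held it. The intervals of these shares overlapped. The Ccl22 level under the KO label rested on 16 UMIs in 3 of 68 cells. Under the WT label, 100 of the 708 Ccl22 UMIs came from 1 cell. The interval of the Ccl22 ratio covers counting error only and leaves this unevenness out. The log2 ratio lay between -3.02 and -1.81 for Ccl17 and between -5.93 and -2.45 for Ccl22 over the clusterings, denominators and weightings of cells that gave the type 50 cells in each library. At resolution 0.5, 1 of those clusterings, the cluster also took in the mature dendritic cells, which numbered 10 and 102. They were high in both genes, so that value is not one of interstitial macrophages alone. The summed cDC2 markers in interstitial macrophages of the main clustering were 2356 and 2645 CPM under the KO and WT labels (8 of 8 with a UMI in each). The mature dendritic cell markers were 186 CPM (5 of 8) and 274 CPM (7 of 8), and the classical monocyte markers 3268 and 1769 CPM (8 of 8 in each). Their part in the difference was not tested. In cDC1 the ratio of Ccl17 was 0.624 (0.551 to 0.704), and 157 of the 299 UMIs under the KO label came from 1 cell. Without the cell with most UMIs in each library, the log2 ratio of Ccl17 in cDC1 moved from -0.68 to -1.62.

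The other values past 2-fold in interstitial macrophages and cDC1 also rested on few cells or few UMIs. Ccl3 in interstitial macrophages was at 221 against 107 CPM, a ratio of 2.06 (1.70 to 2.49), and its log2 ratio moved from 1.04 to -0.10 when called doublets were left out before clustering. Ccl5 in interstitial macrophages was at 51.4 against 232 CPM, a ratio of 0.222 (0.153 to 0.312). Of its UMIs, 26 of 34 under the KO label and 220 of 960 under the WT label came from 1 cell, and the summed NK markers were 101 and 143 CPM (7 of 8 and 8 of 8). In cDC1, Ccl6 was at 207 against 608 CPM, a ratio of 0.340 (0.280 to 0.410). The summed alveolar macrophage markers in cDC1 were 755 CPM (10 of 11 with a UMI) and 1661 CPM (11 of 11), and 0% and 9.59% of cDC1 were called doublets. Without called doublets the log2 ratio of Ccl6 in cDC1 was -0.69, within 2-fold. Also in cDC1, Ccl3 was at 14.1 against 42.5 CPM and Ccl9 at 33.6 against 10.9 CPM.

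Most of the remaining values past 2-fold lay at low levels, far below those of the types highest in the gene. Ccl5 was lower under the KO label in alveolar macrophages (2.57 against 16.1 CPM), B cells (6.14 against 15.9 CPM), nonclassical monocytes (8.43 against 69.8 CPM) and general capillary cells (5.79 CPM from 2 UMIs against 15.5 CPM). With separate clustering of each library, the log2 ratio went from -2.65 to -0.97 in alveolar macrophages, which is within 2-fold, and from -1.42 to 4.05 in general capillary cells, which is the other direction. The summed NK markers, in the same order of types, were 2.69 against 11.6 CPM, 9.39 against 15.5 CPM, 3.55 against 10.7 CPM and 8.69 against 13.6 CPM, with between 2 of 8 and 7 of 8 markers seen under the KO label and between 7 of 8 and 8 of 8 under the WT label. They were 16404 and 17398 CPM in NK cells, which made up 2.08% and 10.52% of cells. Of the 137 Ccl5 UMIs of nonclassical monocytes under the WT label, 93 came from 1 cell. Cxcl12 was at 0.0767 CPM from 2 UMIs against 1.48 CPM in alveolar macrophages. It was at 0 UMIs against 44 UMIs in interstitial macrophages and at 0 against 31 in cDC1. The summed general capillary markers were 40.2 and 64.8 CPM in alveolar macrophages, 296 and 264 CPM in interstitial macrophages and 24.8 and 277 CPM in cDC1. The part of NK or capillary RNA in these counts was not tested.

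T cells held Ccl4 and Ccl9 higher under the KO label, both at low levels. Ccl4 was at 76.5 against 33.3 CPM, a ratio of 2.30 (1.96 to 2.70). Its UMIs lay mostly in the Scart1-led cluster, where the levels were 228 CPM (201 to 258) and 177 CPM (158 to 198), and without the cell with most UMIs the log2 ratio in T cells fell from 1.201 to 0.67. Ccl9 was at 19.9 against 4.31 CPM, highest in the Il17a-led cluster with 39.0 CPM (28.8 to 51.7) against 9.23 CPM (4.77 to 16.1). The summed classical monocyte markers in T cells were 1043 and 437 CPM (8 of 8 in each), and their part was not tested.

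In epithelial cells, Ccl5 was at 134 against 13.6 CPM, but 80 of the 84 UMIs under the KO label came from 1 cell. Ccl6 (187 against 44.0 CPM) and Ccl9 (52.7 against 15.2 CPM) were higher and Cxcl16 (14.4 against 29.3 CPM) lower there. With the mean of each cell's CPM, the log2 ratio of Ccl5 turned from 3.30 to -1.81 and that of Ccl6 went from 2.09 to 0.26, and at Leiden resolution 0.5 that of Ccl6 was 0.32. Cxcl16 went from -1.03 to -0.60 with separate clustering of each library and was within 2-fold with the mean of each cell's CPM as well. Ccl9 stayed past 2-fold in each alternative that gave a value. Epithelial cells under the KO label were shallow, with a median of 2253 UMIs against 7622.5. Their summed classical monocyte markers were 3058 and 2065 CPM (8 of 8 in each) and their alveolar macrophage markers 907 and 346 CPM (10 of 11 and 11 of 11).

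Over all kept cells the libraries differed more than most types did. The log2 ratio of the KO to the WT label was 1.96 for Ccl9 (406 against 105 CPM) and 1.30 for Ccl2 (33.9 against 13.7 CPM). It was -4.05 for Cxcl12 (3.61 against 59.9 CPM), -3.86 for Ccl17 (7.30 against 106 CPM), -3.50 for Ccl22 (5.29 against 60.1 CPM), -1.78 for Ccl5 (388 against 1336 CPM) and -1.38 for Cxcl16 (13.5 against 35.1 CPM). Ccl6 (-0.05), Ccl3 (0.04) and Ccl4 (-0.40) lay within 2-fold. So 2 of the 10 were higher and 5 lower, against 3.2% and 25.2% of all genes (28.4% either way), whose median log2 ratio was -0.37.

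The numbers of cells of each type differed between the libraries. The ratios were therefore also computed with each type at its KO-labelled level and its WT-labelled share of UMIs. The 12 unnamed clusters entered as 1 group, with 9.75% and 18.5% of the UMIs under the KO and WT labels. Shares within that group were not held equal, nor were those of clusters within a named type. The Scart1-led cluster, which carried Ccl5, was 29.9% of T cells under the KO label and 14.1% under the WT label. The log2 ratio at equal shares was 0.24 for Ccl9, 0.04 for Ccl2, -0.05 for Cxcl12, 0.05 for Ccl5 and 0.10 for Cxcl16. It was -0.94 for Ccl22 and -1.79 for Ccl17. These values lean on the levels of small types, such as 10 mature dendritic cells and 2 Fbp1-led cells under the KO label. The 2 Fbp1-led cells held 0 Ccl17 UMIs and so entered the value of Ccl17 at 0, while Fbp1-led cells gave 23.6% of its UMIs under the WT label. In the other direction, levels of the WT-labelled library at the shares of the KO-labelled library gave log2 ratios of 2.25 for Ccl9, 1.996 for Ccl2, -2.31 for Cxcl12, -1.92 for Ccl5, -2.45 for Ccl17, -2.69 for Ccl22 and -0.92 for Cxcl16. These values lean on small types too, such as the 13 Lcn2-led cells under the WT label. That type held 26.3% of the UMIs under the KO label. For Ccl2 the 13 cells held 16 UMIs, at 172 CPM (98.5 to 280). In bulk terms, fewer cells of a type and less RNA per cell cannot be told apart in the values over all cells.

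**Figure D4:**
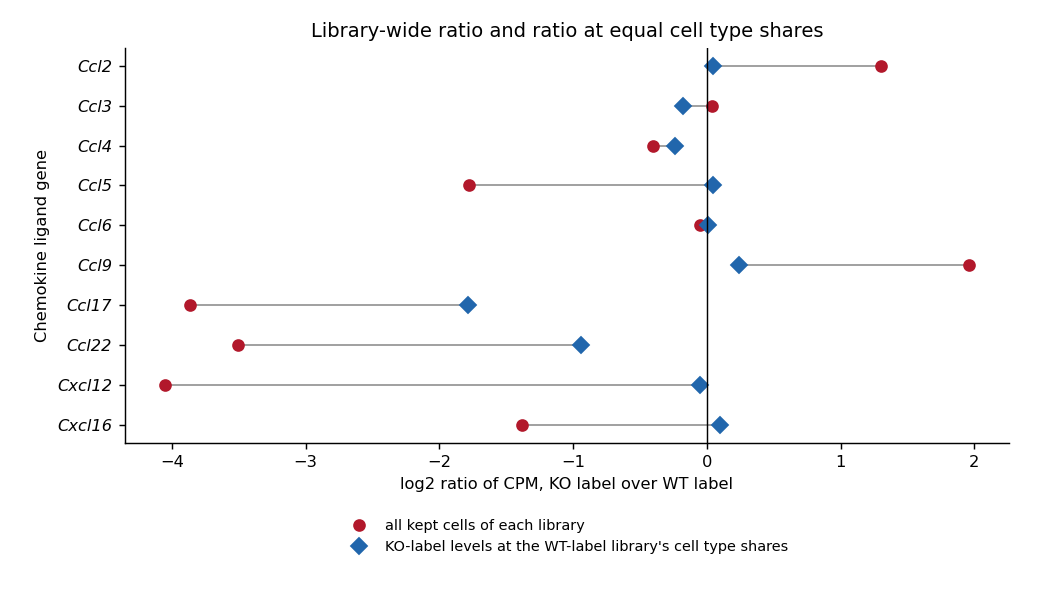
Log2 ratio of the KO to the WT label for each chemokine ligand over all kept cells and with each cell type at its share of UMIs in the WT-labelled library. Unnamed clusters entered as 1 group. At equal shares the values lie between -0.23 and 0.24 for all members but Ccl17 at -1.79 and Ccl22 at -0.94.

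The receptors of these ligands were read from a list of 23 genes. In all, 90 combinations of receptor and type had at least 30 UMIs and were compared. Of these, 17 were past 2-fold higher under the KO label, 9 were lower and 64 lay within 2-fold. The share of all genes past 2-fold either way was between 3.04% (B cells) and 30.8% (epithelial cells). Ccr2, the receptor of Ccl2, was at 1016 CPM (1003 to 1029) in Lcn2-led cells under the KO label, at 909 and 557 CPM in Sirpd-led cells and at 855 CPM in group 2 innate lymphoid cells under the WT label. Ccr1 was at 898 CPM in neutrophils under the WT label, at 278 CPM in Lcn2-led cells under the KO label and at 145 against 62.0 CPM in Sirpd-led cells, a ratio of 2.34 (2.01 to 2.74). Monocyte-like cells thus held both receptors beside Ccl2 and Ccl9. Cxcr4 was at 616 CPM in neutrophils under the WT label and at 493 and 457 CPM in NK cells. Ackr3, which scavenges Cxcl12, was at 457 CPM from 17 cells and 289 CPM in fibroblasts and at 104 and 168 CPM in general capillary cells, the types that held Cxcl12.

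In T cells, 8 of 15 receptors compared were past 2-fold higher under the KO label and 1 lower, against 6.31% and 3.74% of all genes. In epithelial cells, 5 of 6 were higher and 0 lower, against 21.1% and 9.67% of all genes. In T cells Cxcr6, the receptor of Cxcl16, was at 389 against 60.2 CPM, a ratio of 6.47 (5.88 to 7.11), Ccr2 at 273 against 67.0 CPM and Ccr4, the receptor of Ccl17 and Ccl22, at 45.8 against 17.0 CPM. The Il17a-led cluster, with 8 of 8 γδ T cell markers and also 8 of 8 CD4 T cell markers raised, was 35.5% of T cells under the KO label and 11.6% under the WT label. Within that cluster, Ccr4 was at 129.997 CPM (111 to 152) and 127 CPM (108 to 148), Ccr2 at 552 CPM (511 to 595) and 323 CPM (293 to 355), and Cxcr6 at 984 CPM (929 to 1041) and 319 CPM (289 to 351). The intervals overlapped for Ccr4 and lay apart for Ccr2 and Cxcr6. Cxcr4, the receptor of Cxcl12, was lower under the KO label in every T cell cluster, with intervals apart. It was at 227 against 334 CPM in the Il17a-led cluster and at 286 against 440 CPM in the Scart1-led cluster. In the clusters led by Cd4 and Dapl1 it was at 258 against 377 CPM and 156 against 329 CPM.

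Among 27 other ligands, 69 combinations of ligand and type were compared. Of these, 10 were past 2-fold higher under the KO label and 19 lower. Over all genes, the share past 2-fold either way ran from 3.04% in B cells to 30.8% in epithelial cells. In Sirpd-led cells 3 of 8 were higher and 3 lower, against 4.8% and 3.65% of all genes. In general capillary cells 0 of 8 were higher and 4 lower, against 3.56% and 10.7%. In epithelial cells 4 of 6 were higher and 1 lower, against 21.1% and 9.67%. Cxcl2, which draws neutrophils, was at 5796 CPM in neutrophils under the WT label. It was higher under the KO label in Sirpd-led cells, at 1457 against 621 CPM, a ratio of 2.35 (2.24 to 2.46), where Cxcl10, an interferon-induced ligand of Cxcr3, was lower at 30.5 against 85.7 CPM, a ratio of 0.357 (0.307 to 0.415). In interstitial macrophages, 5 of 14 other ligands were lower and 0 higher, against 7.95% and 2.42% of all genes. They included Cxcl13, which draws B cells, at 4.53 CPM from 3 UMIs against 152 CPM, Ccl24, which draws eosinophils, at 28.7 against 124 CPM and Cxcl10 at 6.05 CPM from 4 UMIs against 69.3 CPM.

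The nearest genes to each member over the 29 columns describe where it was found among them and carry no test, since columns share libraries. A column needed at least 50 cells. The 19 and 15 basophils or mast cells, highest in Ccl3 and Ccl4, were therefore left out. So were the 10 mature and 13 plasmacytoid dendritic cells under the KO label. Ccl6 was nearest to Clec7a (r = 0.98) and Tlr2 (0.96), pattern receptors of myeloid cells, and Ccl9 to Clec4a3 (0.91) and Fcgr1 (0.91). Ccl2 was nearest to Ms4a7 (0.86) and C3ar1 (0.83), Ccl3 to Fcer1g (0.88) and Tyrobp (0.87), and Ccl4 to BC147527 (0.77). Ccl5 was nearest to Gzmb (0.91) and Nkg7 (0.91), genes of cytotoxic granules. After each other, Ccl17 was nearest to Dcstamp (0.95) and Ccl22 to Il12b (0.94). Cxcl12 was nearest to Pknox2 (0.98) and Pdgfd (0.97), and Cxcl16 to Zmynd15 (0.85) and Tspan33 (0.84). Ccl3 and Ccl4 correlated at 0.70, and Ccl6 and Ccl9 at 0.74.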

How the data were processed

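The authors deposited, for each of the 2 libraries, raw UMI counts for every gene in every called cell, without normalization, made with Cell Ranger 9.0.1 on GRCm39 (mm39) per the labels' processing notes. Deposited counts covered 33696 genes and 18 antibody tags, and the tags were not used. Following the study's methods, cells needed at least 500 UMIs and 200 genes and at most 20% mitochondrial UMIs, and 9548 ribosomal, mitochondrial and Gm- genes, 19.0% and 16.5% of the UMIs under the KO and WT labels, were left out of every later step. Cells of both libraries were clustered together with scanpy 1.11.5 (2000 variable genes, 50 components, 15 neighbours, Leiden resolution 0.8, no batch correction). Scrublet called 346 cells (3.30%) under the KO label and 1145 (5.92%) under the WT label, which were kept, except that clusters with over 50% of them stayed unnamed.

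A cluster was named from fixed markers raised 1.5-fold and seen in 5% of its cells, if at least 3 were raised and its 10 leading genes held no more markers of another type. It also stayed unnamed if at least 60% of the markers of a type of another lineage were raised. The thresholds of the naming rule were set with the data seen. Clusters of an alternative took the type that gave over 50% of their cells.

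UMIs were summed per library and type and divided by the summed UMIs (CPM). Levels carry exact Poisson, shares exact Clopper-Pearson and ratios exact conditional binomial 95% intervals. A count of 0 allows 3 counts. A gene and type were compared with at least 30 UMIs over both libraries and 50 cells in each, and 2-fold was the limit of size. Per cell shares used cells thinned to 1500 UMIs. The intervals were tested on simulated Poisson counts of summed UMIs, the model that they assume. That check left out the clumping of UMIs in few cells and so cannot speak for it. With 1 library per group there was no test and no SE.

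The members and the gene lists were chosen with earlier results of these data known. The text names the 10 members, of the listed ligands and receptors those past 2-fold or at their highest level in a type that holds a partner, the 2 genes nearest to each member among 12120 with at least 500 UMIs, and Gfi1. A gene that this rule would also name is not reported here. Promoter sequences came from RefSeq's GRCm38.p6 table. R 4.3.3, Python 3.11.15 and its packages leidenalg 0.10.2, scipy 1.17.1 and numpy 2.4.6 were used.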

Additional observations from a re-analysis of the deposited data

Results flagged for a closer look

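Ccl3, Ccl5 and Ccl6 were past 2-fold in opposite directions in different cell types, a difference that was not tested. Ccl3 was higher under the KO label in interstitial macrophages and lower in cDC1, and the log2 ratios of the 2 types differed by 2.63. The cDC1 level under the KO label was 8 UMIs in 3 of 56 cells. Its log2 ratio moved by 1.69 without the cell with most UMIs. The interstitial macrophage value was not past 2-fold without doublets, at resolution 0.5 or without the cell with most UMIs. Ccl5 was higher in epithelial cells, where 80 of 84 UMIs came from 1 cell, and lower in nonclassical monocytes, a difference of 6.36. Ccl6 was higher in epithelial cells and lower in cDC1, a difference of 3.64. With the mean of each cell's CPM, neither Ccl5 nor Ccl6 was past 2-fold higher in epithelial cells.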

How the results depend on the processing

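The members past 2-fold were 7 higher and 13 lower. The higher count was 19 with each library clustered on its own, 4 with the stricter cell filter (1000 UMIs, 500 genes, 10% mitochondrial UMIs), 11 with no minimum beyond 1 UMI and 3 at 100 CPM or more. The lower count was 35 with no minimum and 4 at 100 CPM or more. The shares of all genes past 2-fold under these alternatives were not computed. The limit of 100 CPM, the setting without the cell with most UMIs and that without basophils or mast cells were chosen after seeing the data. The other alternatives gave counts within 1.5 times.

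The log2 ratio over all cells with the mean of each cell's CPM was 1.49 for Ccl2, 0.31 for Ccl3, -1.57 for Ccl5, 0.37 for Ccl6, 2.31 for Ccl9, -3.24 for Ccl17, -2.72 for Ccl22, -3.37 for Cxcl12 and -0.94 for Cxcl16. With all gene UMIs as the denominator it was -0.45 for Ccl4, -1.83 for Ccl5, -0.093 for Ccl6 and 1.91 for Ccl9. It was -1.87 for Ccl5 without doublets, and -0.37 for Ccl3 and -0.85 for Ccl4 without basophils or mast cells.

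Within types, 4 values turned: Ccl5 in general capillary cells to 4.05 with separate clustering of each library, Ccl3 in interstitial macrophages to -0.10 without doublets, Ccl5 in interstitial macrophages to 0.56 at resolution 0.5, where the cluster took in the mature dendritic cells and some unnamed cells, and Ccl5 in epithelial cells to -1.81 with the mean of each cell's CPM. The cause was not tested otherwise. Other values, within 2-fold in the main setting, went past it in an alternative. Without doublets these were Ccl5 in T cells and Ccl2 and Cxcl16 in interstitial macrophages. With separate clustering they were Ccl4 in NK cells and Ccl4 and Cxcl16 in interstitial macrophages. Cxcl16 there did so at resolution 0.5 too, and Ccl5 in T cells with the mean of each cell's CPM. Ccl5 and Ccl17 in cDC1 did so without the cell with most UMIs. Ccl17 and Ccl22 in interstitial macrophages kept their call in each alternative that gave a value; the stricter filter left the type under 50 cells in a library. Of the 20 highest levels, 10 shares of cells with a UMI moved over 1.5 times without thinning. No paired analysis was possible because each group held 1 library. Precision is limited by the few KO-labelled interstitial macrophages, cDC1 and mature dendritic cells.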
